A study of Mus musculus with 12 samples.

Results

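The 9 genes described here serve neurons in building microtubules and growth cones, and they were followed across 12 arrays of mouse neural progenitor cells: the stathmins Stmn2 and Stmn3, the microtubule-associated proteins Mapt and Map2, the tubulin Tubb3, the doublecortin gene Dcx, the growth cone protein gene Gap43, and the RNA-binding protein genes Elavl3 and Elavl4. Every probe whose name, older alias or accession in the scanner files belongs to 1 of the 9 genes was taken, which gave 19 of 41174 probes and 9 of 27670 named genes. The genes were listed for their roles in neurons and not by a threshold on these values.

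The cells were of the strain 129/Ola, and each culture gave 1 one-colour (Cy3) array. In 10 cultures a retroviral open reading frame in the vector pMXs-IRESNeo supplied a transcription factor: Crebzf, Esx1, Etv6, Gatad2b, Hmga2, Nfxl1, Pax6, Pdx1, Sox11 or Zfp451. The controls were a culture given EGFP and a culture labelled mock, and the labels do not say if the latter met virus or G418. The virus dose was chosen so that about 95% of cells expressed the insert, G418 was added at 24 h to remove cells without the vector, and RNA was taken at 72 h. The inserts are driven by a retroviral vector in the whole culture, so they are not restricted to 1 cell type. With 1 array for each group there are no replicates and no p-values, so each difference stands without an error. The comparison asks which of the 9 genes differed from both controls when a factor was supplied.

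Microtubules are hollow polymers of alpha- and beta-tubulin, and they form the tracks and the scaffold of axons and dendrites. Stathmins bind free tubulin and destabilise microtubules, whereas Mapt (tau), Map2 and Dcx bind the polymer and stabilise it. Gap43 is a membrane-attached protein of the growing axon tip, and the Elavl proteins bind AU-rich RNAs, among them the messenger of Gap43. Dividing neural progenitors have little of most of these messengers, and young neurons have much, which is why Tubb3, Dcx and Map2 serve as markers of neuronal differentiation.

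Promoter sequences from RefSeq (GRCm38.p6) were at hand for 6 of the 9 genes, in 10 entries, and not for Stmn2, Mapt and Gap43. The 250 bases before the start of 3 genes are printed because the 3 genes behaved differently on the arrays: Map2 stood higher on some factor arrays, Tubb3 was measured on every array and called on none, and Elavl3 was at or near background throughout. Capitals mark matches on either strand to a few short motifs. CAGCTG is a form of the E-box bound by neurogenic basic helix-loop-helix factors. A further form of that box searched for was CATCTG on both strands. GGGCGG is the GC box bound by Sp factors. The CCAAT box and the TATA box (searched as TATAAA) are general promoter elements. Searched last was TTCAGCACC, the left part of the element bound by REST, a repressor of neuronal genes. The lines run 5′ to 3′ on the strand of the gene.
Map2, chr1:66175079-66175328, plus strand: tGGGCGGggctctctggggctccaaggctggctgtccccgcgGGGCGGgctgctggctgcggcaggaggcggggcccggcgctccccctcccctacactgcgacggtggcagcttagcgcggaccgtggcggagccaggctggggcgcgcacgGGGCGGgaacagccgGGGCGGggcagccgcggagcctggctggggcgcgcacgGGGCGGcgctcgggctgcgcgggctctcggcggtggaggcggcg
Tubb3, chr8:123411303-123411552, plus strand: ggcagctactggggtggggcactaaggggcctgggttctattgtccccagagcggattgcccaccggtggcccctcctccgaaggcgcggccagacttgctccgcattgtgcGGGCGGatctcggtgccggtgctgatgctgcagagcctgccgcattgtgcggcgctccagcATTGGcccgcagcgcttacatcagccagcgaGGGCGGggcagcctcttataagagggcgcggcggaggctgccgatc
Elavl3, chr9:22052024-22052273, minus strand: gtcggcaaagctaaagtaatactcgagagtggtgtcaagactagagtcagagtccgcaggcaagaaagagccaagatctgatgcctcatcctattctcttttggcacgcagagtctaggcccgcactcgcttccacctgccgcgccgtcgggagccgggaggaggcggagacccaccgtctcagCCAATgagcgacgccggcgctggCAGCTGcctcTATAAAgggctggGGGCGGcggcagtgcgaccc

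The Map2 window was 81.2% G and C with 34 CpG and 5 GC boxes. The Tubb3 window was 68% G and C with 21 CpG, 2 GC boxes and 1 CCAAT box. The Elavl3 window was 61.6% G and C with 20 CpG and held 1 E-box of the first form, 1 GC box, 1 CCAAT box and 1 TATA box. All 3 were richer in CpG than most promoters: over 32851 RefSeq windows of this length the median was 52.4% G and C and 6 CpG, and the upper quartile was 61.2% and 16 CpG. The GC box was found in 32.7% of those windows, the CCAAT box in 33.8%, the E-box forms in 13.0% (the first) and 14.4% (the other), the TATA box in 12.4% and the REST motif in 0.301%. The REST motif was found in none of the 10 windows of these genes. The entries of Stmn3, Dcx and Elavl4 had 41.6% to 53.6% G and C. These are matches of letters, and no binding was measured.

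A level here is the log2 of a probe's processed signal minus the log2 of the 75th percentile of all spots on that array, so 0 is that percentile and each unit is a doubling. Levels of different probes are not comparable, since probes differ in how well they bind. A gene was called higher on a factor's array when the brightest of its probes stood at least 2-fold above both EGFP and mock, and lower when it stood at least 2-fold below both, with the brighter side well above background by the scanner software's flag. Each array's dimmest signal flagged well above background set a floor (-6.96 to -6.45), to which lower signals were raised before differences were taken, and a fold against a control that was not well above background is written as at least that fold. Levels quoted for single arrays are before the floor.

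The 75th percentile lay between 823.5 and 1026 intensity units and 62.9% to 69.4% of spots were well above background, with no spot saturated. The arrays fell into 2 sets by counts over all genes, a division made after the data were seen and not a grouping of the study. Set A is Crebzf, Esx1, Pax6, Pdx1, Sox11 and Zfp451, and set B is EGFP, mock, Hmga2, Gatad2b, Etv6 and Nfxl1. Between 3786 and 4955 genes were at least 2-fold apart in each of the 36 pairs that joined an array of set A to one of set B, against 152 to 1369 in the 15 pairs within set A and 285 to 791 in the 15 pairs within set B. Pax6, Hmga2, EGFP and mock shared slide 1, Gatad2b, Etv6, Esx1 and Nfxl1 slide 2, and Crebzf, Pdx1, Sox11 and Zfp451 slide 3, so slide 3 held no array of set B. Of 26 probes of the supplied factors, 3 were well above background and highest of the 12 on the array of their own factor, and differences from the control mean there ran from -0.83 to 1.35. Whether those probes lie within the inserted reading frames was not established, so they do not check the labels.

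Stmn2, Mapt, Map2 and Gap43 accounted for all 19 calls of a higher level among the 90 pairs of a gene and a factor array, and Elavl4 for the 1 call of a lower level. All 20 calls were on arrays of set A. Pdx1 had 4 of the 9 genes called higher, and Pax6, Esx1, Crebzf, Sox11 and Zfp451 had 3 each. Over all 20968 genes tested, the share called higher was 10.7% on Pax6, 10.3% on Esx1, 9.82% on Crebzf, 9.85% on Pdx1, 9.74% on Sox11 and 9.59% on Zfp451. Hmga2, Gatad2b, Etv6 and Nfxl1 had none of the 9 genes called in either direction, beside shares over all genes of 0.434%, 0.644%, 1.04% and 0.3% called higher and 0.558%, 1.0%, 0.835% and 1.17% called lower. The lower call was on Pax6, where 6.39% of all genes were called lower. On Esx1, Crebzf, Pdx1, Sox11 and Zfp451, where 7.42%, 6.28%, 6.63%, 6.93% and 6.3% of all genes were called lower, none of the 9 was. The 10 arrays were compared with the same pair of controls, so an error in a control enters every row of these counts.

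The 9 genes did not shift as a body. Their median difference from the control mean lay between -0.27 and -0.086 on the 6 arrays of set A, beside -0.21 to -0.084 for all genes tested. On the other 4 factor arrays it lay between -0.23 and 0.0074, beside -0.041 to 0.020. On Pax6, Crebzf and Zfp451 this median was the value of Elavl3 at the floor. On Hmga2 it was Stmn2 at the floor, and on Gatad2b and Etv6 Dcx at the floor. The range over all genes on set A also ends, on Sox11 and Pax6, at differences between array floors. These medians therefore depend on the floor and are not all measured levels. After the floor, 4 of the 9 genes (Stmn2, Mapt, Map2 and Gap43) lay above set B on every array of set A and 2 (Elavl4 and Stmn3, the latter mostly not well above background) lay below it on every one. Over all 20968 genes tested 22.9% lay above and 26.3% below in this way, so such a separation was common and, since the sets were drawn from the same data, is a description. For Stmn3 it was made by the floor. Before the floor, Esx1 at -6.62 and Pax6 at -6.67 lay above Gatad2b at -6.80 and Etv6 at -6.90. The brightest probe of 4 genes (Mapt, Map2, Tubb3 and Elavl4) was well above background on all 12 arrays, that of Gap43 on 11, of Stmn2 on 7, of Stmn3 on 5, and of Dcx and Elavl3 on 1. A culture was measured in bulk, so fewer cells of a type and less RNA per cell cannot be told apart.

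**Figure D1:**
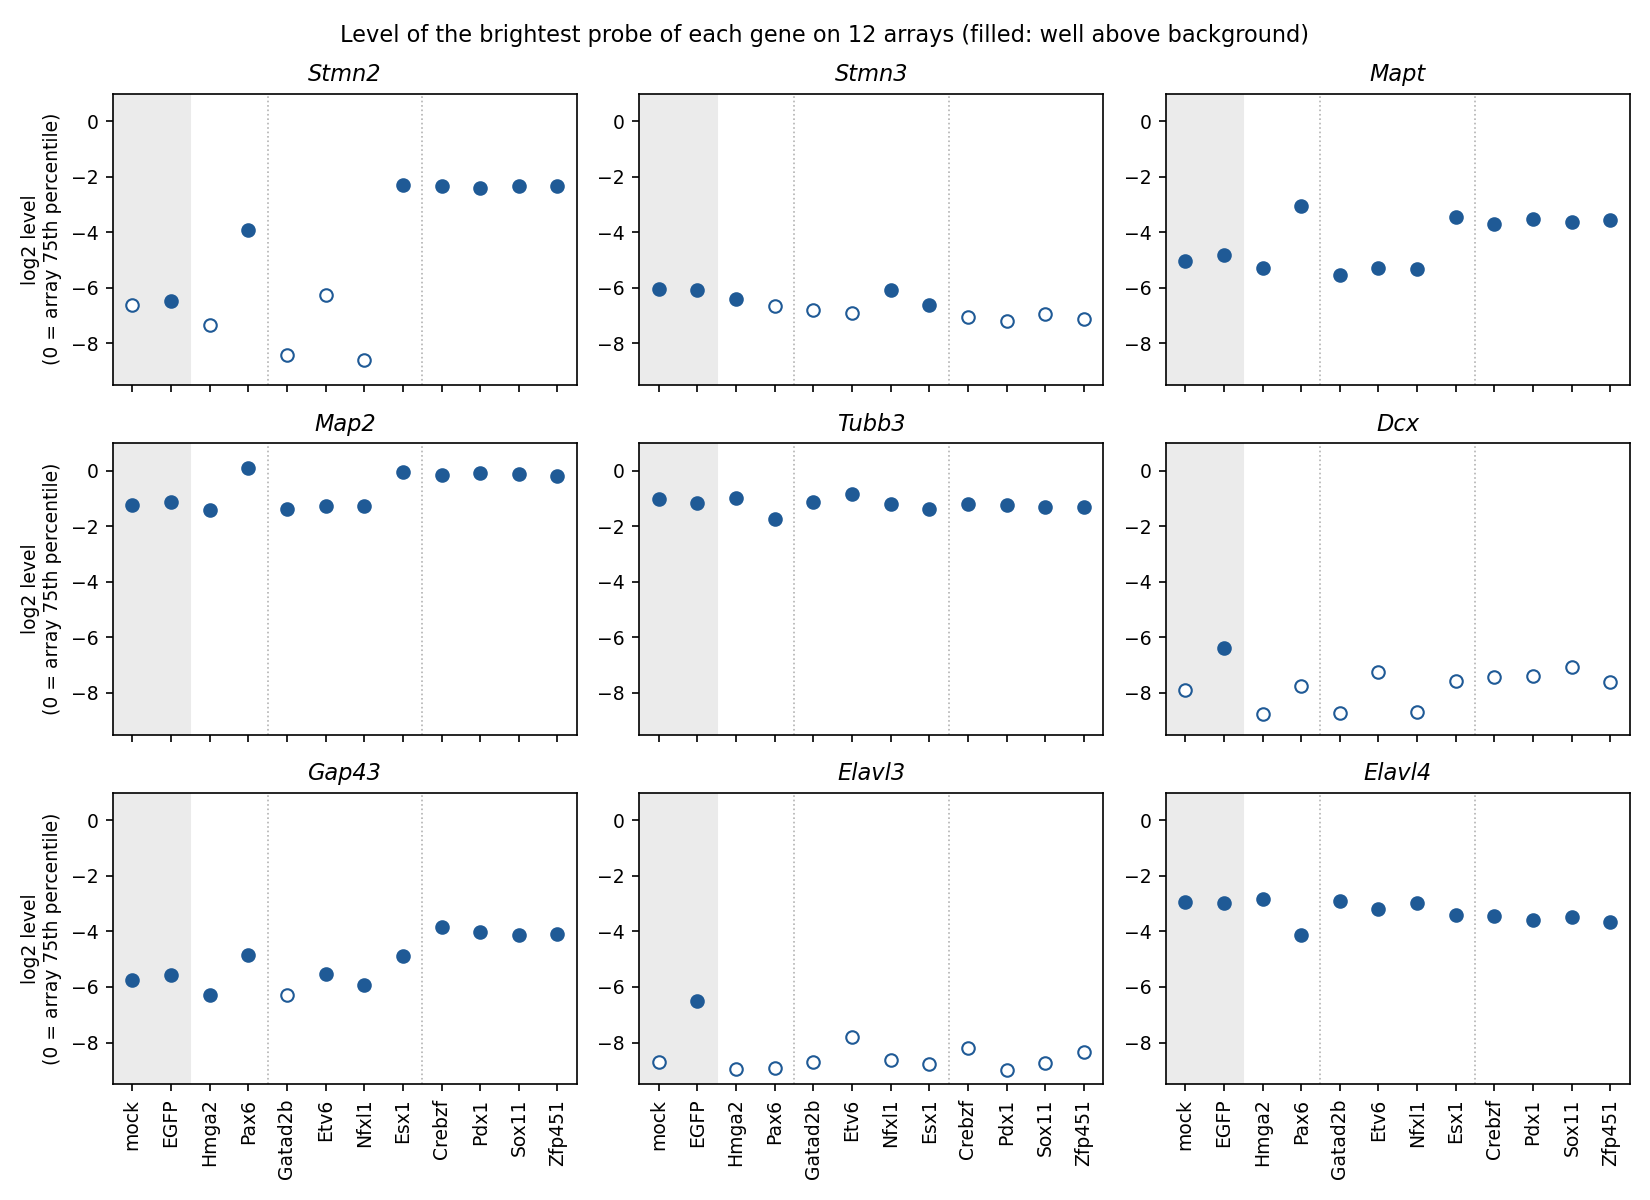
Level of the brightest probe of each gene (vertical axis, log2, 0 is the array's 75th percentile) on the 12 arrays (horizontal axis; controls shaded, dotted lines between slides, filled points well above background, open points not). Stmn2 stood between -3.91 and -2.29 on the 6 arrays of set A and at -6.25 or lower on the other 6, Mapt, Map2 and Gap43 were also higher on those 6 arrays, and Tubb3 and Elavl4 were not.

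Stmn2, which binds tubulin dimers in growing neurites, showed the largest differences of the 9 genes. Its brighter probe (chromosome 3, 8567696 to 8567755 in mm7) read -6.61 on mock, -6.48 on EGFP, -7.35 on Hmga2, -8.43 on Gatad2b, -6.25 on Etv6 and -8.60 on Nfxl1, of which only EGFP was well above background. On set A it read -3.91 on Pax6, -2.29 on Esx1, -2.32 on Crebzf, -2.40 on Pdx1, -2.33 on Sox11 and -2.32 on Zfp451, all well above background. Stmn2 was therefore near background on 6 arrays and clearly measured on the other 6, and the sets did not overlap, as for 22.9% of all genes in this direction. The gap between the lowest array of set A (Pax6) and the highest of set B (Etv6) was 2.34, while EGFP and mock differed by 0.13 before the floor.

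The Stmn2 level was at least 18.9-fold above the control mean on Esx1, a log2 difference of 4.24, and between at least 17.4-fold and at least 18.4-fold above it on the 4 arrays of slide 3. These 5 arrays lay within 0.11 of each other although Esx1 stood on another slide. On Pax6 the level was at least 6.12-fold above the control mean, a difference of 2.61, and 1.51 to 1.62 below the other 5 arrays. Ranked among all 20968 genes by difference from the control mean, Stmn2 was between 37 and 48 from the top on those 5 arrays and 330 on Pax6. The second Stmn2 probe, which lies upstream at 8554020 to 8554079 and was designed to a cDNA clone, was well above background on no array, so the pattern rests on 1 probe. With a normexp background correction (offset 50) the 5 arrays were still called, and Pax6, at 0.82, was not.

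Stmn3, a second stathmin of neurons, was dim everywhere. Its probe (chromosome 2, 181807603 to 181807662, minus strand) was well above background on mock at -6.06, EGFP at -6.07, Hmga2 at -6.40, Nfxl1 at -6.10 and Esx1 at -6.62. The other 7 readings, not well above background, ran from -7.21 on Pdx1 to -6.67 on Pax6. No array was called, and differences from the control mean lay between -0.89 and -0.028 on the 10 factor arrays. On set A, where Stmn2 was called on every array, Stmn3 stood at differences of -0.89 to -0.55, and Esx1 alone was well above background. On Crebzf, Pdx1, Sox11 and Zfp451 its value was the floor, so the differences there, and that on Pax6, are only bounds.

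Mapt, which encodes the axonal protein tau, was called higher on all 6 arrays of set A. Its brightest probe (chromosome 11, 104439072 to 104439131) read -5.03 on mock, -4.82 on EGFP, -5.30 on Hmga2, -5.53 on Gatad2b, -5.27 on Etv6 and -5.31 on Nfxl1. It read -3.04 on Pax6, -3.44 on Esx1, -3.71 on Crebzf, -3.50 on Pdx1, -3.62 on Sox11 and -3.57 on Zfp451. Set A lay above set B throughout, as for 22.9% of all genes, Pax6 was the highest of the 12, and every array was well above background.

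The Mapt difference from the control mean was 1.89 on Pax6, a 3.70-fold higher level, and 1.22 to 1.49 on the other 5, or 2.33-fold to 2.81-fold. The gap between the sets was 1.11, and EGFP and mock differed by 0.21. On Hmga2, Gatad2b, Etv6 and Nfxl1 Mapt stood 0.34 to 0.60 below the control mean and was not called. Of 11 steps between neighbouring arrays in the order of Mapt levels, 6 were smaller than the difference between EGFP and mock, so the order within a set is not resolved at those steps. With the normexp correction Mapt stood 0.42 to 0.87 above the controls on set A and was called on none.

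A second Mapt probe, further 3′ (104441038 to 104441097), was well above background on exactly the 6 arrays of set A, with levels of -5.53 to -4.98, and stood at least 2.20-fold to at least 3.23-fold above the control mean. The third, for which the file gives a range of 3161 bases (104427278 to 104430438), was well above background on 8 arrays and was called on none. Its differences were 0.99 on Pax6, 0.70 on Sox11 and 0.044 to 0.34 on the other 4 arrays of set A. All 3 Mapt probes were thus above the control mean on set A, and the most 5′ of them by the least on each of the 6 arrays.

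Map2, the microtubule-associated protein of dendrites (named Mtap2 in the files), had 4 probes. The brightest (chromosome 1, 66681917 to 66681976) read -1.23 on mock, -1.12 on EGFP, -1.40 on Hmga2, -1.39 on Gatad2b, -1.26 on Etv6 and -1.25 on Nfxl1. It read 0.11 on Pax6, -0.04 on Esx1, -0.14 on Crebzf, -0.07 on Pdx1, -0.13 on Sox11 and -0.19 on Zfp451. Set A lay above set B without overlap, as for 22.9% of all genes. The sets were separated by 0.93, and the levels spanned 0.30 within set A and 0.28 within set B.

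Differences from the control mean for Map2 were 1.29 on Pax6, 1.14 on Esx1 and 1.11 on Pdx1, which were called, and 1.03 on Crebzf, 1.04 on Sox11 and 0.98 on Zfp451, which were just under 2-fold above EGFP and were not. EGFP and mock differed by 0.11, and of 11 steps in the order of Map2 levels 7 were smaller than that.

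The probe nearest the 5′ end of Map2 (66534535 to 66534594) gave nearly the same differences, 0.92 to 1.44 on set A, with the same 3 arrays called. A probe between them (66678688 to 66678747) was well above background on all 12 arrays and differed by only 0.10 to 0.39 on set A. The remaining probe (66625561 to 66625620) was well above background on Pax6 alone. Of the 4 Map2 probes, 2 thus showed the difference, 1 showed a smaller one, and 1 was too dim to say. With the mean of all 4 probes in place of the brightest, the called arrays stood 0.55 to 0.79 above the controls and none was called.

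**Figure D2:**
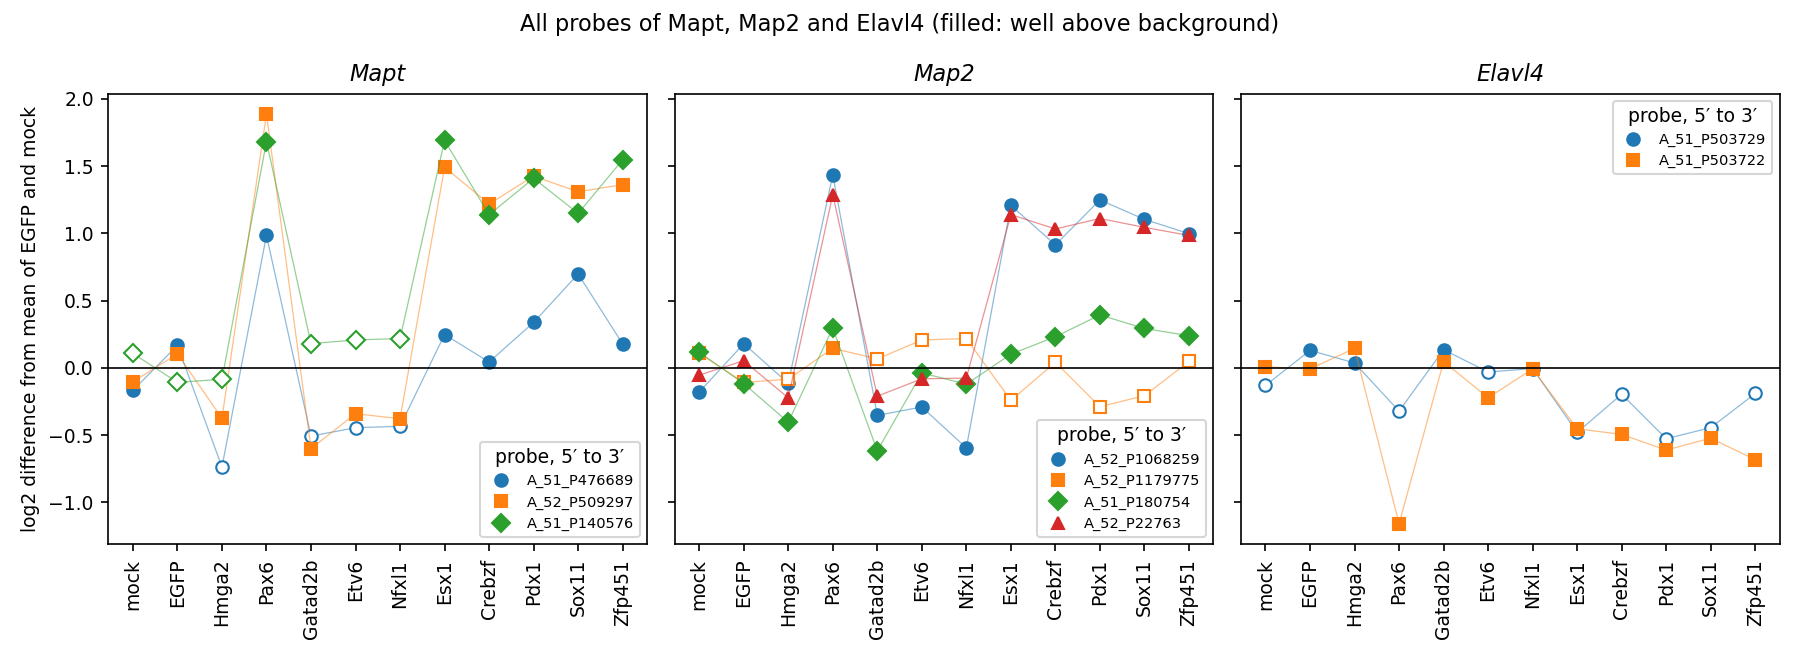
Log2 difference from the mean of EGFP and mock (vertical axis, after the floor) for every probe of Mapt, Map2 and Elavl4 on the 12 arrays (horizontal axis), with probes listed from 5′ to 3′ and filled points well above background. On set A, 2 of 3 Mapt probes and 2 of 4 Map2 probes stood about 1 or more above the controls, and the other probes of these genes stood closer to 0 except the first Mapt probe on Pax6 at 0.99.

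Tubb3, the beta-tubulin used as the standard marker of neurons, was well above background everywhere and was called nowhere. Its probe (chromosome 8, 122062871 to 122062930) is printed at 10 places on each array, which gives the only repeated measurement among the 9 genes. Mean levels over the spots were -1.01 on mock, -1.17 on EGFP, -0.995 on Hmga2, -1.11 on Gatad2b, -0.85 on Etv6 and -1.20 on Nfxl1. They were -1.72 on Pax6, -1.36 on Esx1, -1.20 on Crebzf, -1.24 on Pdx1, -1.29 on Sox11 and -1.30 on Zfp451. The SD over the spots of an array was 0.031 to 0.095, with 9 spots kept on Crebzf, and it covers the printing and scanning of 1 sample, not the spread between cultures.

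Tubb3 on Pax6 was the lowest of the 12, 0.63 below the control mean, or 1.54-fold lower, and its brightest spot there (-1.62) was dimmer than the dimmest spot of Esx1 (-1.42), the array next to it. On the other 5 arrays of set A Tubb3 stood 0.11 to 0.27 below the control mean, where the median of 9 control genes was 0.25 to 0.34 below it. The sets met at Crebzf and Nfxl1, and 10 of 11 steps between neighbouring arrays were smaller than the 0.15 between EGFP and mock. On the arrays where Mapt and Map2 stood higher, this marker was at or below the control level.

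**Figure D3:**
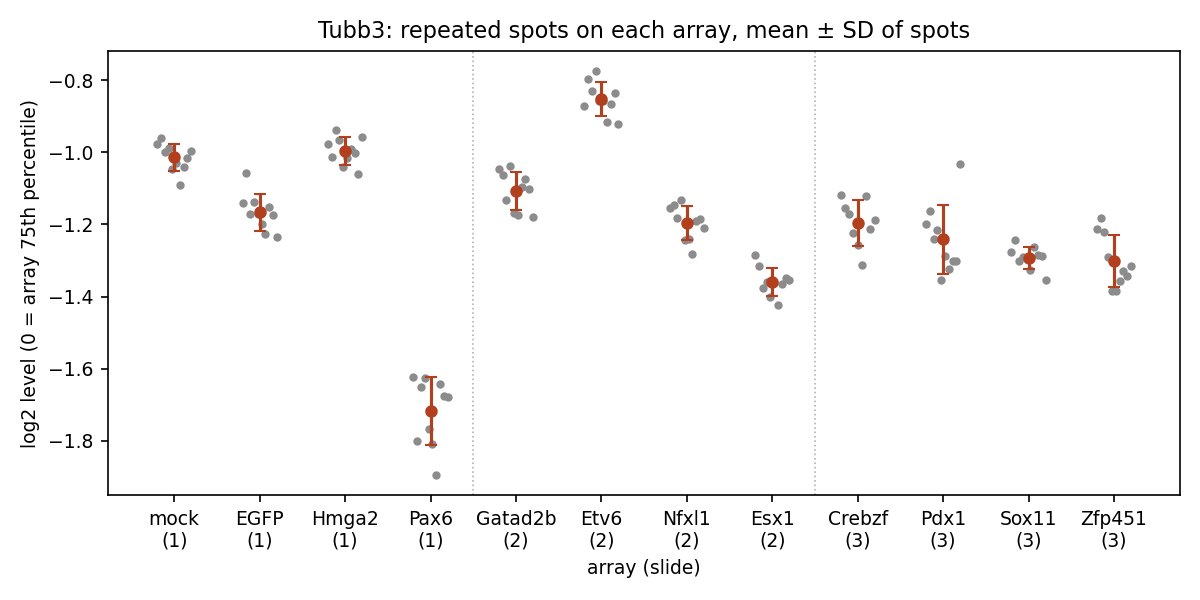
Tubb3 level (vertical axis, log2, 0 is the array's 75th percentile) at each repeated spot (grey) with the mean and SD over spots (red) for the 12 arrays, slide number in brackets. The Pax6 array lies lowest at -1.72, and Crebzf of set A and Nfxl1 of set B lie level at -1.20.

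Dcx, which stabilises microtubules in migrating young neurons, was not measurable on 11 arrays. Of its 3 probes on chromosome X, 1 (138520631 to 138520690, minus strand) was well above background on EGFP, at -6.38, and the other 2 on no array. That probe read -8.74 to -7.07 elsewhere, none of it well above background, and no array was called.

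Gap43 was called higher on the 4 arrays of slide 3. The file gives its single probe a range of 48166 bases on chromosome 16 (42052862 to 42101027, minus strand). The level was -5.74 on mock, -5.57 on EGFP, -6.29 on Hmga2, -6.30 on Gatad2b (not well above background), -5.53 on Etv6 and -5.92 on Nfxl1. It was -4.85 on Pax6, -4.88 on Esx1, -3.85 on Crebzf, -4.01 on Pdx1, -4.14 on Sox11 and -4.10 on Zfp451. Set A lay above set B throughout, as for 22.9% of all genes, but in 2 steps, with Pax6 and Esx1 in the middle.

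The 4 arrays of slide 3 stood 1.51 to 1.80 above the control mean for Gap43, or 2.85-fold to 3.48-fold, and Pax6 and Esx1 stood 0.80 and 0.77 above it, 1.74-fold and 1.71-fold, short of a call. The widest gap in the order, 0.71, lay between Sox11 and Pax6, where slide 3 also begins, so slide and factor cannot be told apart for the upper step. When the levels of each slide were centred on their mean over its arrays, the 4 arrays stood -0.074 to 0.21 from the control mean and none was called. Slide 3 held only arrays of set A, so this centring also removes what they share. With the normexp background correction they stood 0.36 to 0.53 above it and none was called.

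Elavl4, an RNA-binding protein of neurons also called HuD, was the only one of the 9 genes called lower on any array. Its brighter probe (chromosome 4, 109582609 to 109582668, minus strand) read -2.96 on mock, -2.97 on EGFP, -2.82 on Hmga2, -2.92 on Gatad2b, -3.18 on Etv6 and -2.97 on Nfxl1. It read -4.12 on Pax6, -3.41 on Esx1, -3.46 on Crebzf, -3.57 on Pdx1, -3.49 on Sox11 and -3.65 on Zfp451. All 6 arrays of set A lay below all 6 of set B, as for 26.3% of all genes, and Pax6 stood apart as the lowest.

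On Pax6 the Elavl4 level was 1.16 below the control mean, or 2.23-fold lower, and 0.48 to 0.71 below the other arrays of set A. Those 5 stood 0.45 to 0.68 below the controls, or 1.37-fold to 1.61-fold lower, and were not called. EGFP and mock differed by 0.015. With the normexp correction the Pax6 difference was -0.71, and with the mean of both probes -0.74, neither of them a call. The second Elavl4 probe (109588017 to 109588076), upstream of the first, was well above background on EGFP at -6.30, Hmga2 at -6.39 and Gatad2b at -6.29 and on none of set A. Elavl3, its relative HuC, was well above background on EGFP alone, at -6.51 by 1 of its 2 probes on chromosome 9 (21896233 to 21896292, minus strand), and was called nowhere.

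**Figure D4:**
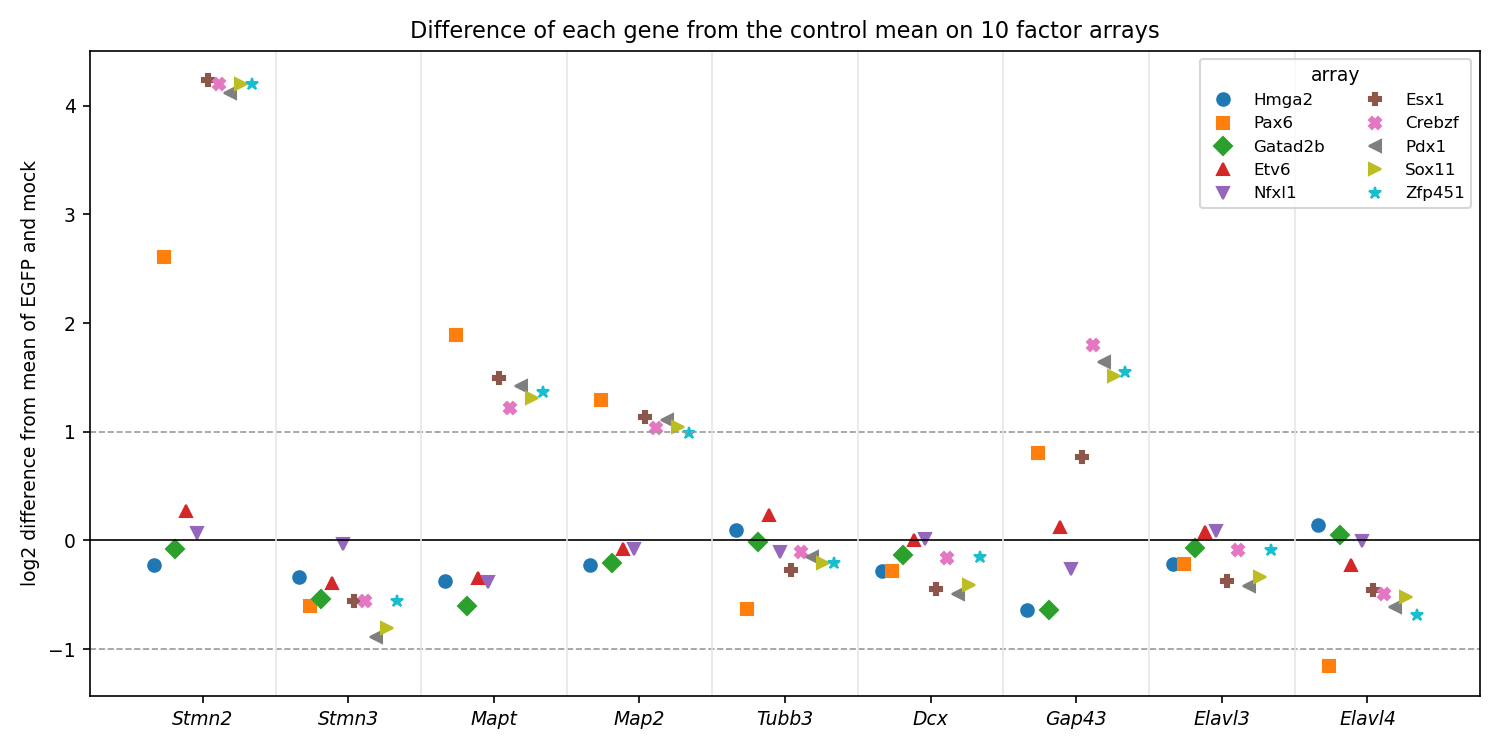
Log2 difference of the brightest probe of each gene from the mean of EGFP and mock (vertical axis, after the floor; dashed lines at 1 and -1) on the 10 factor arrays (symbols). Stmn2 lies between 2.61 and 4.24 on the 6 arrays of set A, Mapt and Map2 between 0.98 and 1.89 and Gap43 between 0.77 and 1.80, while Elavl4 on Pax6 lies at -1.16.

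Slide 2 held 1 array of set A, Esx1, beside 3 of set B, so it gives a comparison on 1 slide without the controls of slide 1. For Stmn2, which was not well above background on Gatad2b, Etv6 or Nfxl1, Esx1 stood at least 3.96 above each of them. It stood 1.83 to 2.09 above them for Mapt, 1.22 to 1.35 for Map2 and, with Gatad2b not well above background, at least 0.64 for Gap43. It stood 0.16 to 0.51 below them for Tubb3 and 0.23 to 0.50 below them for Elavl4. Against the controls on slide 1, Esx1 stood 1.49 above for Mapt, 1.14 above for Map2 and 0.45 below for Elavl4. On slide 1 the Pax6 array and both controls stood together, so the Pax6 differences given above are also within 1 slide. With arrays centred within slides, 2 of 6 Stmn2 calls, 2 of 6 Mapt calls and 2 of 3 Map2 calls were left. The share of all genes called higher was then 2.43%, against 6.25% by the main rule. Slide 3 held only arrays of set A, so the centring also removes what they share.

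Pax6 stood apart from the other arrays of set A for 5 of the genes. It was the only array of set A on slide 1, so slide and factor cannot be told apart here. Over all genes, 729 to 1369 were at least 2-fold apart between Pax6 and each other array of set A, against 152 to 596 among those others. Pax6 had the lowest Stmn2, Tubb3 and Elavl4 of the 6 arrays of set A and, by the brightest probes, the highest Mapt and Map2, by 0.40 and 0.15 over the next array. For Map2, EGFP and mock differed by 0.11. The Mapt probe at 104441038 was highest on Esx1 and the Map2 probe at 66678688 on Pdx1, and the remaining probes of both genes were highest on Pax6. For Gap43 it was level with Esx1, 0.031 apart. None of these differences has a replicate.

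Genes with the most similar pattern over the 12 arrays were found by the root mean square difference of levels after the mean of each gene was removed, among 12611 named genes well above background on all 12. For Mapt these were Slc14a2 (0.13) and Tnni1 (0.14), and for Map2 Sesn3 (0.077) and Spata6 (0.078). For Tubb3 they were Bmyc (0.069) and Rassf1 (0.072), and for Elavl4 Gen1 (0.073) and Ada (0.090). Stmn2 and Gap43 were not measured on every array and were compared with 15435 genes instead, a choice made after their values were seen. Mirg (0.15) and Slc16a7 (0.16) came closest to Stmn2 and Stk33 (0.26) and Arhgef15 (0.27) to Gap43. The arrays share controls, slides and the division into sets, and none of the 9 genes was the nearest to another by rule, since they were left out of the search.

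Related genes of the same machinery were mostly not called. The counts of this list and of those below stand beside shares over all genes on set A of 9.59% to 10.7% higher and 6.28% to 7.42% lower. Of 16 stathmin, microtubule-associated and doublecortin relatives tested, 0 to 1 was called higher on each array of set A and 0 to 1 lower, with median differences of -0.060 to 0.090. Mapre3, a plus-end binding protein, was called higher on Pax6, Sox11 and Zfp451, by 1.14 to 1.20. Dclk1, a doublecortin-like kinase, was called higher on Esx1, by 1.27, and Map1b, a microtubule-associated protein of axons, lower on Esx1, by 1.36. Stmn1, the stathmin of dividing cells, and Map4, the general microtubule-associated protein, were well above background on all 12 arrays and called on none.

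Of 13 tubulins other than Tubb3, 2 to 5 were called lower on each array of set A and 0 to 1 higher, and none on the other 4 factor arrays. The median difference of the list was -0.95 to -0.34 on set A, beside -0.21 to -0.084 for all genes. A list of 9 control genes (such as Actb, Tbp and Hprt) stood at medians of -0.34 to -0.24 on the same arrays, with none called, and on Crebzf the tubulins' -0.34 was close to their -0.33. Tubb4b and Tuba1c, tubulins of most cell types, were called lower on all 6 arrays, with levels of 1.80 to 2.28 against 3.34 to 3.46 on set B for Tubb4b, and 5.91 to 6.08 against 7.10 to 7.26 for Tuba1c. Tubg1, the gamma-tubulin of the centrosome, was called lower on Pax6 and Esx1, with 2.60 to 2.98 on set A against 3.84 to 4.07. Tubg2, a second gamma-tubulin, was called higher on Esx1, Crebzf, Pdx1, Sox11 and Zfp451, by 1.35 to 1.48. The Tubb3 differences of -0.63 to -0.11 were smaller than those of Tubb4b and Tuba1c on the same arrays.

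Of 21 growth cone and axon growth genes, 2 were called higher on every array of set A, where 9.59% to 10.7% of all genes were. Nrcam, an axonal adhesion molecule, read -3.27 to -2.44 on set A and -6.13 to -5.07 on set B, and stood 4.59-fold to 8.17-fold above the control mean. Dpysl4, of the collapsin response mediator family, was well above background on the 6 arrays of set A only, at least 2.81-fold to at least 7.47-fold above the control mean. Dpysl5, of the same family, was called lower on Hmga2, Crebzf and Zfp451. The median over the list was -0.073 to 0.16 on set A.

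Of 9 neuronal kinesin and dynein genes, the axonal transport motors Kif1a and Kif5a were called higher on all 6 arrays of set A, 4.73-fold to 9.10-fold and 2.55-fold to 3.19-fold. The list's median was 0.34 to 0.57 there. Dync1i1, a dynein intermediate chain, was called higher on Etv6 alone, 3.30-fold. Kif1a read 2.42 to 3.37 on set A and -0.0083 to 0.29 on set B, without overlap, as for 22.9% of all genes in this direction.

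Of 13 neuronal RNA-binding protein genes, Rbfox1, a splicing regulator, and Celf5 were called higher on all 6 arrays of set A, 11.4-fold to 27.8-fold and 5.58-fold to 5.92-fold. Elavl1, the relative of Elavl4 found in most cells, was called lower on Pax6, Esx1, Crebzf and Sox11, with 2.36 to 2.67 on set A against 3.55 to 3.67 on set B. Rbfox3, which encodes the neuronal marker NeuN, was called higher on Gatad2b alone, 2.99-fold. The list's median was -0.34 to 0.17 on set A.

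Of 4 neuronal intermediate filament genes tested, Nefl, the light neurofilament, was called lower on Pax6, Esx1, Crebzf, Sox11 and Zfp451, with -6.47 to -4.48 on set A against -4.05 to -2.68 on set B. Prph, peripherin, was called higher on Esx1, Crebzf, Pdx1, Sox11 and Zfp451, 2.86-fold to 3.67-fold. Nefh, the heavy neurofilament, was called higher on Pax6 alone, at least 5.62-fold. The list's median was -0.48 to 0.56 on set A, and its lower end, on Pdx1, lies between values of genes at the floor.

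Of 13 synaptic and transmitter genes, Snap25 and Syt1, proteins of vesicle release, were called higher on all 6 arrays of set A, 5.44-fold to 9.32-fold and 5.24-fold to 8.42-fold. Slc17a7, a vesicular glutamate transporter, was well above background on no array, Slc32a1, the vesicular GABA transporter, on 1, and Gad1, which makes GABA, on Gatad2b alone, where it was called higher. The list's median was -0.29 to 0.042 on set A, and both ends (on Pdx1 and Crebzf) are differences between array floors, not measured levels.

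Of 18 neurogenic transcription factor genes, Neurod2 was called higher on all 6 arrays of set A, 3.64-fold to 9.56-fold, and Ebf1 on these and on Gatad2b, 2.29-fold to 16.0-fold. Eomes, a factor of intermediate progenitors of the cortex, was called lower on all 6. Insm1 was called higher on Etv6, at least 3.30-fold. The list's median was -0.21 to -0.036 on set A, and its lower end, on Sox11, is a difference between array floors. Of 10 genes for REST and its corepressors, only Ctdspl on Esx1 was called, by 1.12, and the median was -0.17 to 0.0045.

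**Figure D5:**
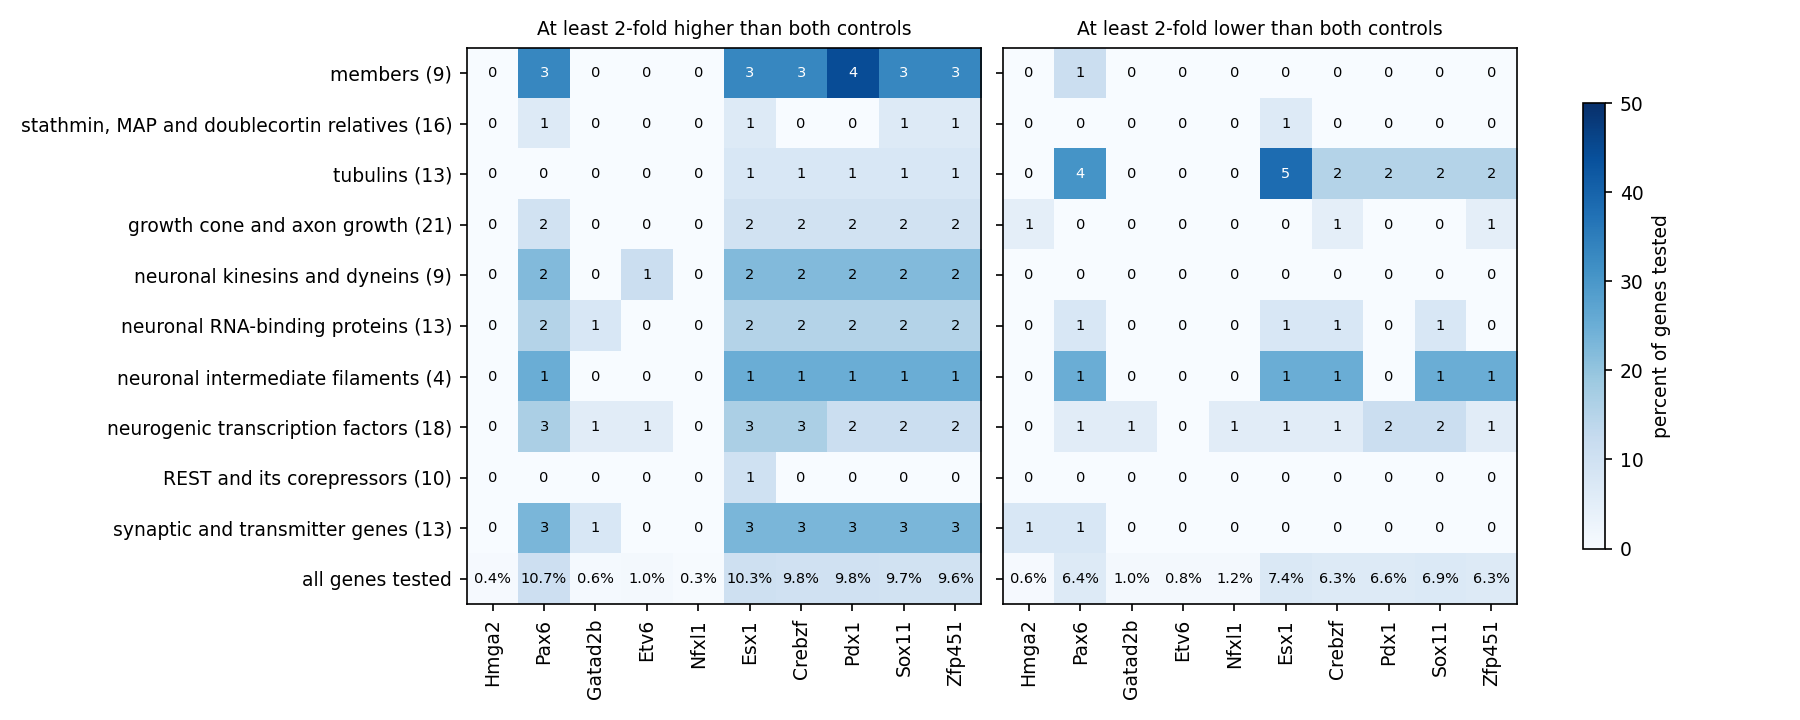
Number of genes of each list (rows, genes tested in brackets; members are the 9 genes) called at least 2-fold higher (left) or lower (right) than both controls on the 10 factor arrays (columns), with the percent over all genes tested in the bottom row and colour giving the percent of the list. Calls stand mostly on Pax6, Esx1, Crebzf, Pdx1, Sox11 and Zfp451, where 3 to 4 of the 9 genes and 2 to 5 of 13 other tubulins, the latter lower, were called.

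Calls among markers of progenitors and of other cell types stood mostly on the arrays of set A. Of 13 progenitor markers tested, 1 to 2 were called higher and 0 to 2 lower on each of these arrays. Over all genes the shares there were 9.59% to 10.7% higher and 6.28% to 7.42% lower. Of 14 progenitor markers, 10 were well above background on all 12 arrays, among them Nes, Vim and Sox2 (the cells are labelled neural progenitor cells), and Sox3 on none. Nes, the progenitor filament nestin, was called lower on Pax6, Esx1, Crebzf, Sox11 and Zfp451, with 1.92 to 2.35 on set A against 3.34 to 3.61 on set B. Sox9 was called higher on Esx1, Crebzf, Pdx1, Sox11 and Zfp451, Fabp7 on Crebzf alone and Slc1a3 on Pax6 alone. The summed linear level of the list, in multiples of the 75th percentile, was 87.9 to 104.7 on set A and 101.2 to 128.7 on set B.

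Of 8 astrocyte markers, 2 to 4 were called higher on each array of set A, with summed levels of 28.6 to 35.1 against 11.2 to 13.2 on set B. Apoe and S100b were called on all 6, while Gfap, the defining astrocyte filament, was well above background on 1 array of the 12. Aldoc was called higher on Pax6, Crebzf, Pdx1, Sox11 and Zfp451, and Aqp4 on Hmga2 alone. Of 8 fibroblast markers, 4 to 6 were called higher on each array of set A, with summed levels of 226.7 to 243.5 against 94.8 to 105.6, and Postn, Thy1, Dcn and Col1a1 were called on all 6. Of 8 oligodendrocyte markers tested, 1 to 3 were called higher and 0 to 2 lower on set A. Summed levels were 3.74 to 4.74 against 2.99 to 3.85, and Olig1 was well above background on none. Pdgfra was called higher on all 6 arrays of set A and on Etv6. Cspg4 was called higher on Esx1, Crebzf, Pdx1, Sox11 and Zfp451, and Olig2 on Crebzf alone. Mag was called lower on Esx1, Crebzf and Sox11.

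Of 5 microglia and blood cell markers tested, 1 to 2 were called higher on set A, with summed levels of 0.21 to 0.26 against 0.17 to 0.28. Aif1 was called higher on all 6 arrays of set A and Cx3cr1 on Pdx1 and Nfxl1, while Itgam and Tyrobp were well above background on none. Of 3 endothelial markers tested, none was called higher and Flt1 was called lower on Pax6, by 1.08, with summed levels of 0.51 to 0.72 against 0.96 to 1.07, and Pecam1 and Cdh5 were well above background on none. Of 6 pluripotent cell markers, Esrrb was called lower on all 6 arrays of set A, and summed levels were 0.54 to 0.68 against 0.40 to 0.46. The part of these other markers in the levels of the 9 genes was not tested. Thy1 is also made by neurons, and Mapt and Gap43 are also made by some glial cells.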

How the data were processed

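RNA (0.25 µg a sample) was hybridised to 12 one-colour arrays, 4 on each of 3 slides. The deposited files give a background-subtracted linear intensity for each spot (gProcessedSignal) from Agilent Feature Extraction 10.7.3.1, per the file headers, with flags for outliers and for signal well above background. The deposited value table equals that column. Any scaling by the authors after that is not stated in the labels. Probe positions come from the files and refer to mm7.

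Outlier spots were left out, repeated spots averaged and each array scaled to its 75th percentile. Probes were named by RefSeq accession (22951), symbol (6659), synonym (3109) or as in the files (8455). The brightest probe on average stood for a gene, and the 20968 genes with signal well above background somewhere were tested, 16073 of them above it everywhere. The number of arrays limits the precision. The median difference of genes measured on all arrays from the control mean was -0.13 to 0.026.

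The 9 genes, the gene lists and the rules were chosen with earlier results of these data known. The text names all 9 genes with all probes, the up to 4 called genes of each list with the largest difference, and the 2 most similar genes; other list members named for being undetected or uncalled were chosen after their values were seen. Nova1, Nova2 and Gapdh were not analysed here. A list gene that the rule names is not reported here. Python 3.11.15, pandas 2.3.3, R 4.3.3 and limma 3.58.1 (normexp, an alternative) were used.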

Additional observations from a re-analysis of the deposited data

How the results depend on the processing

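The 19 higher calls came to 19 with quantile normalization, 19 without the floor, 19 against EGFP alone, 22 against mock alone, 24 at 1.5-fold and 13 with the mean of all probes. The share of all genes called higher was 6.25% by the main rule. Under these settings, in the order given, it was 6.38%, 6.98%, 6.81%, 7.21%, 10.8% and 5.35%. The higher calls came to 6 with a normexp background correction (offset 50), 6 with arrays centred within slides and 8 at 3-fold. There the share over all genes was 3.46%, 2.43% and 3.32%. When genes had to be measured on every array, 4 of the 9 genes were tested and 9 calls were counted, beside a share of 5.95%. All 6 Mapt and 3 Map2 calls stayed under that rule, which left out Stmn2 and Gap43. The 1 lower call came to 0 with normexp, 3 without the floor (Stmn3 on Pdx1 and Zfp451 added), 0 with the mean of all probes, 6 at 1.5-fold and 0 at 3-fold. The share of all genes called lower was 4.35% by the main rule. In the same order of settings it was 2.31%, 5.42%, 3.78%, 12.5% and 0.909%. With normexp, which adds an offset that shrinks differences of dim probes, none of 6 Mapt calls and none of 4 Gap43 calls was left, at 0.42 to 0.87 and 0.36 to 0.53, and 5 of 6 Stmn2 calls and 1 of 3 Map2 calls were. With the mean of all probes 3 of 6 Mapt and 0 of 3 Map2 calls were left. Centring within slides turned Gap43 to -0.074 on Sox11 and -0.036 on Zfp451. Slide 3 held no control and no array of set B, so that centring removes what its 4 arrays share.

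No paired analysis was possible because each group held 1 array. Dim signals limit Stmn2, Stmn3, Dcx and Elavl3, whose levels on several arrays are only bounds, and Gap43 on Gatad2b.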
